A study of Mus musculus with 48 samples.

Results

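F311 is a mouse mammary tumor line derived from a spontaneous BALB/c tumor, and the 4 tumors grown from it were compared with the 16 tumors of the other BALB/c models, 4 each of 4T1, D2A1, EMT-6 and TS/A-E1. They were taken by sample title from a series of 48 tumors, 4 from each of 12 models, and every tumor had its own Affymetrix array. All 5 BALB/c models are labelled as of spontaneous origin and none carries an engineered allele or received a treatment. Cells were implanted in the #4 mammary fat pad of syngeneic, immunocompetent young female mice, and tumors of 0.5 to 1.0 cm were dissected free of surrounding and necrotic tissue and frozen. Each model is 1 cell line, so a difference between models is a difference between lines, and the study's methods give different cell numbers and times to harvest for F311 and 4T1. The labels name the tumors as biological replicates and give no batch. Values are log2 signals as the authors deposited them, with array medians of 6.76 to 6.99.

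Tumor lines that share a host strain can still keep different epithelial programs. Claudins seal the tight junctions of epithelial sheets, and Cldn6 is best known from embryonic epithelia. Dual oxidases of the plasma membrane make hydrogen peroxide at epithelial surfaces, and peroxiredoxins remove it. Angiopoietin-like proteins are secreted and act on vessels, lipid metabolism and matrix, and Angptl7 is best known from the cornea and the eye's drainage tissue. In a whole tumor, fewer cells of a type and less RNA per cell cannot be told apart.

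The genes Cldn6, Duox1 and Angptl7 were chosen to mark F311, and Prdx4 was among the genes with the lowest signal relative to the other models. The 250 bases before their annotated starts are shown because the differences of these genes carry much of what follows. They are taken from RefSeq in build GRCm38.p6 and read 5′ to 3′ on the strand of the gene, and capitals mark each match, on either strand, to the TATA box letters TATAAA, the CCAAT box, the Sp1-type box with letters GGGCGG or the AP-1-type site with letters TGANTCA. Cldn6 lies on the plus strand at chr17:23679115-23679364, Duox1 on the plus strand at chr2:122315422-122315671, Angptl7 on the minus strand at chr4:148500463-148500712 and Prdx4 on the minus strand at chrX:155338461-155338710.

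Cldn6: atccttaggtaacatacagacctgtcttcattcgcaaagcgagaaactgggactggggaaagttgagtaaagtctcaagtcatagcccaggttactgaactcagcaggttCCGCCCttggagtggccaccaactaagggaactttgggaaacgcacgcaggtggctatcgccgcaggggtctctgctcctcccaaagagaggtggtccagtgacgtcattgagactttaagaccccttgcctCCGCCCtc

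Duox1: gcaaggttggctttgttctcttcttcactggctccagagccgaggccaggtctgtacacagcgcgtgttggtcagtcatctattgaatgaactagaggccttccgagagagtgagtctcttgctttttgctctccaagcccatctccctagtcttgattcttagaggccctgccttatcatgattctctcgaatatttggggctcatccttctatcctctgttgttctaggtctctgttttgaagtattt

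Angptl7: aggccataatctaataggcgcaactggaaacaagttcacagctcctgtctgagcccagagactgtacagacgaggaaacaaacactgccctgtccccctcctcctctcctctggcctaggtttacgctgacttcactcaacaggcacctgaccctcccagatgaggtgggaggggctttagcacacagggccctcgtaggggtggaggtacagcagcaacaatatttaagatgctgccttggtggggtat

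Prdx4: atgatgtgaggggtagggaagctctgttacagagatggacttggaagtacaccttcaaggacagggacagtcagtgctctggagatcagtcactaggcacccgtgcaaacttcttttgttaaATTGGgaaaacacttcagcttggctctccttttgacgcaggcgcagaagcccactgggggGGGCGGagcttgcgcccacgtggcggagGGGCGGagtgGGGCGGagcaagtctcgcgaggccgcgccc

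The Cldn6 window held GGGCGG 2 times and 9 CpG dinucleotides, and none of the other motifs. The Prdx4 window held GGGCGG 3 times, CCAAT 1 time and 13 CpG. The windows of Duox1, with 5 CpG, and Angptl7, with 4 CpG, held no match to the 4 motifs. Among all 32851 promoters of that length 32.7% held GGGCGG, 33.8% CCAAT, 12.4% TATAAA and 6.75% TGANTCA, with a median of 6.0 CpG. Promoters were listed for 66 of the 81 genes called higher below and for 36 of the 50 called lower, with more than 1 for some genes. The 84 promoters of the higher genes held GGGCGG in 34.5% and the 50 of the lower genes in 58.0%. The median CpG counts of these promoters were 5.5 and 14.5. Matches describe the letters only.

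F311 replicate 1 stood apart from the other F311 tumors. Its log2 signal across genes correlated with theirs at 0.927 to 0.952, while replicates 2, 3 and 4 correlated with each other at 0.990 to 0.996, and 7 tumors of other models correlated better with replicate 1 than any F311 tumor did. The closest was Met-1 replicate 2, at 0.984, a tumor of an FVB/N model that itself correlated with its own model at no more than 0.959. The score of 8 adipocyte genes (the mean over the genes of log2 signal minus the median of the 48 tumors) was 3.86 in F311 replicate 1, against 0.01, 0.13 and -1.04 in replicates 2, 3 and 4 and -1.02 to 2.47 in the 16 other BALB/c tumors. All 8 genes were highest of the 4 F311 tumors in replicate 1. The score of 6 B cell genes was 4.84, 3.18, 0.00 and -0.17 in replicates 1 to 4, and -0.31 to 3.71 in the other BALB/c tumors, with all 6 genes again highest in replicate 1. All 11 fibroblast genes and all 9 genes of pericytes and smooth muscle were also highest in replicate 1 of the F311 tumors, and its fibroblast score was 1.00 against -0.30 to -0.11. Below, the counts of called genes over all genes are given with and without replicate 1. So are the counts of some gene lists and the differences of some of the named genes.

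A gene was called higher in F311 when its mean was above that of each of the 4 other models and the largest of the 4 p-values, adjusted over 19938 genes, was under 0.05, and lower by the mirrored rule (limma, Benjamini-Hochberg). By this rule 81 genes were higher, 0.406% of those tested, and 50 were lower, 0.251%. Without replicate 1, 200 genes were higher (1.003%) and 104 lower (0.522%). With the adipocyte and B cell scores as covariates the counts were 125 and 80, and without the 4 of the 20 tumors that had either score above 2.5 (F311 replicates 1 and 2, 4T1 replicate 3 and EMT-6 replicate 3) they were 167 and 62. Of the 81 higher genes 79 were also called without replicate 1, as were 43 of the 50 lower genes. In 42 of the 81 all F311 tumors lay above all 16 others, and 38 of the remaining 39 did so once replicate 1 was left out. Of the 50 lower genes 42 did not overlap. A gap between the F311 tumors and all 16 others was seen in 0.828% of all genes upward and in 1.28% downward. The differences from the nearest model were modest for most called genes, with a median of 0.78 on the log2 scale for the higher and -0.52 for the lower genes, and 33 and 10 reached 1. Leaving out another F311 tumor lowered the counts, to 59 and 28 without replicate 2, 38 and 33 without replicate 3, and 38 and 27 without replicate 4.

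Against single models, F311 differed least from TS/A-E1. There 845 genes were higher (4.24%) and 1396 lower (7.002%) in F311. Against 4T1 1657 genes were higher (8.31%) and 1908 lower (9.57%), and against EMT-6 1705 were higher (8.55%) and 1845 lower (9.25%). Against D2A1 2308 were higher (11.6%) and 2571 lower (12.9%). Without replicate 1 the shares of genes higher than in 4T1, D2A1, EMT-6 and TS/A-E1 were 10.4%, 12.2%, 11.3% and 6.25%, and those of lower genes 9.22%, 10.7%, 9.03% and 6.14%. The 4 comparisons share the F311 tumors, so their counts are not independent, and the differences between the counts were not tested.

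Cldn6 (gene ID 54419), the tight junction claudin, had the largest difference of the higher genes. Its log2 signal was 7.40 in F311 replicate 1 and 11.32, 11.49 and 11.30 in replicates 2, 3 and 4. The other models had 6.48 ± 0.22 (4T1), 6.66 ± 0.05 (D2A1), 6.64 ± 0.26 (EMT-6) and 6.94 ± 0.17 (TS/A-E1; SD, n = 4 each). All 4 F311 tumors were above all 16 others, whose highest was 7.18, but replicate 1 was so by little. The mean was 3.44 ± 0.49 (SE) above TS/A-E1, the nearest model, or 10.8-fold (adjusted p = 4.2e-05). Without replicate 1 the difference was 4.43, or 21.6-fold. The SD of the 4 F311 tumors was 1.98. Here and below, the SE and adjusted p of the limma fit use 1 spread per gene, pooled over all models in the fit. For Cldn6 they therefore do not reflect the wider spread of the F311 tumors. Cldn9, which codes for a close relative of Cldn6 and lies next to it on chromosome 17, had 6.71 in replicate 1 and 9.38, 9.54 and 9.39 in the other F311 tumors, and it passed only without replicate 1 (difference 1.82 from TS/A-E1, adjusted p = 6.9e-12, against 1.14 and 0.072 with all tumors). These were the only claudins of 17 measured that passed in either setting. Cldn3, Cldn4 and Cldn7, claudins of adult glandular epithelium, were higher in F311 than in D2A1 and EMT-6, while Cldn4 and Cldn7 were lower than in 4T1.

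Duox1 (gene ID 99439), the dual oxidase, showed the same split among the F311 tumors. Its signal was 6.77 in replicate 1 and 10.68, 10.48 and 10.83 in replicates 2, 3 and 4, against means of 6.16 ± 0.06 in 4T1, 6.77 ± 0.57 in D2A1, 6.63 ± 0.30 in EMT-6 and, for TS/A-E1, 6.21 ± 0.09 (SD, n = 4 each). Replicate 1 lay inside the range of the other models and the other 3 tumors lay over 3 log2 units above it. The difference from D2A1, the nearest model, was 2.92 ± 0.42 (SE), or 7.59-fold (adjusted p = 4.2e-05), and 3.90 or 14.9-fold without replicate 1. The SD of the 4 F311 tumors was 1.95. Duoxa1, the maturation factor that dual oxidase 1 needs, was 7.41, 7.60, 7.77 and 7.98 in the F311 tumors. It was higher than in 4T1 by 0.84 (adjusted p = 0.013) and in TS/A-E1 by 0.78 (0.030), with differences of 0.24 from D2A1 (0.59) and 0.39 from EMT-6 (0.33). Duox2, the other dual oxidase, had 5.70 to 5.79 in F311 and model means of 5.59 to 5.76 elsewhere. Of the 13 listed genes of the NADPH and dual oxidases only Duox1 passed against every model. Cybc1, a chaperone of the NADPH oxidase cytochrome that the list does not hold and that was picked after its values were seen, also passed, with 10.05, 10.18, 10.17 and 10.13 in F311 and a difference of 0.42 from EMT-6 (adjusted p = 0.0067).

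Angptl7 (gene ID 654812), the secreted angiopoietin-like protein, had 7.13 in replicate 1 and 10.24, 10.08 and 10.67 in replicates 2, 3 and 4. The other models had 6.06 ± 0.17 (4T1), 6.12 ± 0.14 (D2A1), 6.44 ± 0.29 (EMT-6) and 6.99 ± 0.61 (TS/A-E1; SD, n = 4 each). Replicate 1 was again within the range of the others, which reached 7.68 in a TS/A-E1 tumor. The mean was 2.54 ± 0.48 (SE) above TS/A-E1, or 5.82-fold (adjusted p = 0.0026), and 3.34 or 10.1-fold above it without replicate 1. The SD of the 4 F311 tumors was 1.62. None of the other 8 angiopoietins and angiopoietin-like genes measured passed against every model. Among the 7 models of other strains, the Cldn6 mean of 12.81 in R3T was above that of F311, while no mean of Duox1 exceeded 6.88 or of Angptl7 7.28.

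**Figure D1:**
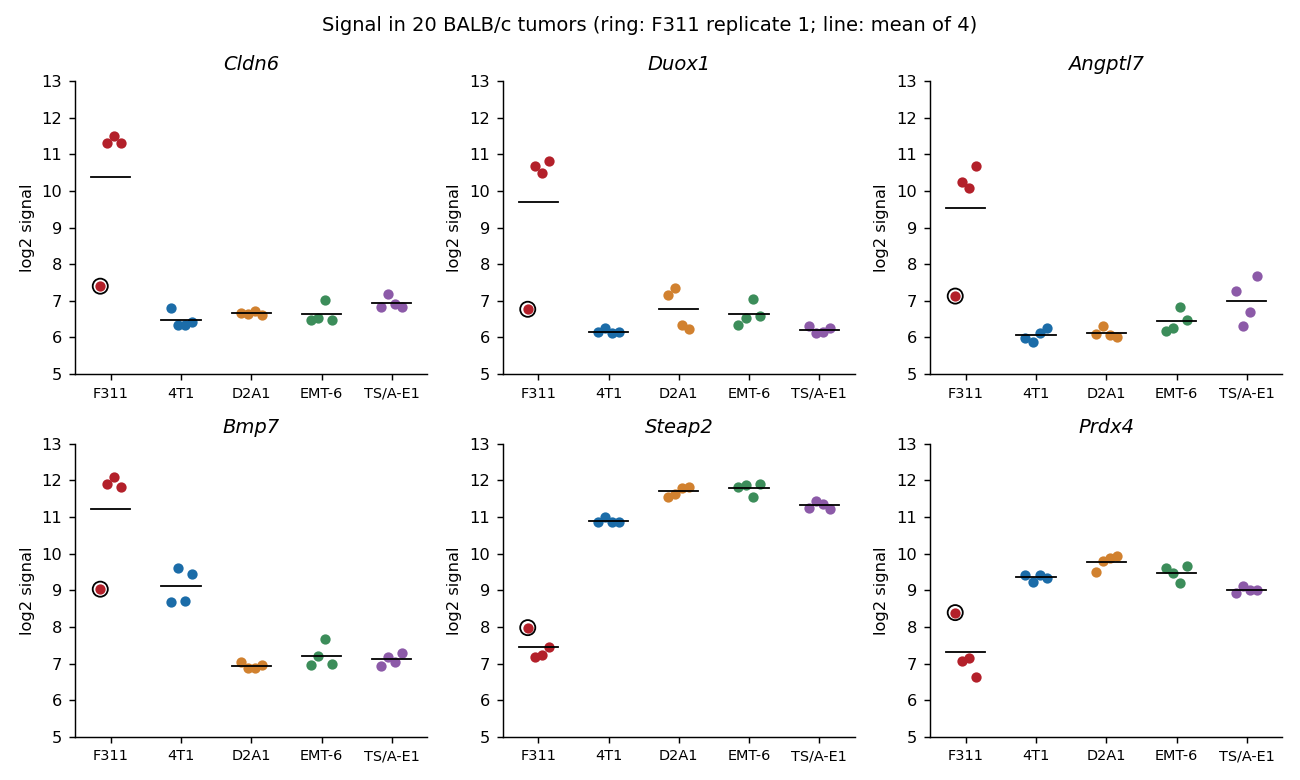
Log2 signal (vertical axes) of 4 genes higher and 2 genes lower in F311, in the 5 BALB/c models (horizontal axes). Each point is 1 tumor, lines are means of 4 tumors and the ring marks F311 replicate 1, which for Cldn6, Duox1, Angptl7 and Bmp7 has 7.40, 6.77, 7.13 and 9.03 while the other F311 tumors have at least 10.08.

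Other secreted or surface proteins were higher in F311 than in each model. Bmp7, a secreted growth factor of the BMP family, had 9.03 in replicate 1 and 11.90, 12.08 and 11.81 in replicates 2, 3 and 4, with 9.11 ± 0.49 in 4T1 and 6.94 to 7.20 on average in the other models. Replicate 1 thus fell within the 4T1 tumors, and the difference from 4T1 was 2.10 ± 0.40 (SE, adjusted p = 0.0026), or 2.82 without replicate 1. The SD of the 4 F311 tumors was 1.45. Bmp4, another ligand of that family, was not higher and was lower than in EMT-6, by 2.90, and in TS/A-E1, by 1.52. Vtcn1, an inhibitory ligand of T cells of the B7 family, had 8.24, 8.49, 9.49 and 9.45, above the highest other BALB/c tumor at 7.06, with a difference of 2.40 from TS/A-E1 (adjusted p = 0.023). That call was lost without any one of F311 replicates 3 and 4, TS/A-E1 replicates 1 and 3 and EMT-6 replicate 4. Parm1, a mucin-like membrane protein, had 10.85, 11.14, 11.60 and 11.34 and a difference of 2.21 from EMT-6 (adjusted p = 0.011), a call lost without F311 replicate 3 or D2A1 replicate 3, and Hc, complement component C5, had 8.27, 7.90, 7.99 and 7.93 and a difference of 1.48 from 4T1 (0.0063), a call lost when the 4 tumors with a score above 2.5 were left out. In Vtcn1, Parm1 and Hc replicate 1 did not overlap the other models.

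Enzymes were among the other named higher genes. Aldh1a1, which makes retinoic acid from retinaldehyde, had 8.26, 6.91, 9.13 and 9.43, with replicate 2 below the highest other tumor at 7.29, and its mean was 2.20 ± 0.50 (SE) above D2A1 (adjusted p = 0.019). The call was lost without any one of F311 replicates 3 and 4, D2A1 replicates 3 and 4 and EMT-6 replicate 1. St8sia6, a sialyltransferase, had 9.16, 8.31, 8.57 and 9.25 and a difference of 2.13 from EMT-6 (adjusted p = 0.00051). Zdhhc15, a palmitoyltransferase, had 8.20, 8.72, 8.34 and 8.84 and a difference of 1.79 from 4T1 (2.1e-07). Carns1, carnosine synthase, had 8.73, 8.65, 8.64 and 8.73, the narrowest range among these genes, and a difference of 1.14 from TS/A-E1 (0.00097). In St8sia6, Zdhhc15 and Carns1 replicate 1 was close to the other F311 tumors.

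In most of the remaining genes of the set replicate 1 was the lowest F311 tumor. It was still above all 16 others, but in several genes only by little. Ppfibp2, with 8.14, 8.09, 8.31 and 8.40, was the exception to that order. Nebl, an actin-binding protein, had 7.25, 8.25, 9.09 and 8.82 and a difference of 1.82 from 4T1 (adjusted p = 0.00022). Ripply3, a transcriptional corepressor, had 7.22, 8.11, 8.35 and 8.60 (1.40, 4.2e-05), and Reep2, which shapes the endoplasmic reticulum, had 7.78, 8.87, 9.18 and 9.16 (1.17, 8.8e-06), both against EMT-6. Slitrk6, a neuronal-type adhesion protein, had 4.66, 5.44, 6.43 and 6.82, and the peptide transporter Slc15a1 had 5.19, 6.01, 6.29 and 7.04. The highest other BALB/c tumors had 4.64 and 5.17, so in these 2 dim genes replicate 1 was about level with them. The differences of Slitrk6 and Slc15a1 from 4T1 were 1.27 (0.0012) and 1.05 (0.022). Ppfibp2, a liprin, and Bcl2l15, of the Bcl2 family, differed from the nearest model by 1.10 and 0.99. The Slc15a1 and Ppfibp2 calls were lost without F311 replicate 3 or 4 or EMT-6 replicate 4, and that of Slc15a1 also without D2A1 replicate 3, 4T1 replicate 1, 2 or 4 or EMT-6 replicate 2 or 3.

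Another 12 called genes, with differences of at least 1.08 from the nearest model, were outside the naming rule because replicate 1 overlapped the other models, and they are named here after their values were seen. Eras, a Ras protein of embryonic stem cells, had 4.88 in replicate 1 and 7.44, 7.77 and 7.92 in the other F311 tumors, with 4.87 to 5.08 in all 16 others (difference 2.02, adjusted p = 4.2e-05). Lypd2, a small surface protein of the Ly6 family, had 7.08 and then 9.31, 9.67 and 10.17 (2.15, 3e-05). Rab3b, a GTPase of secretory vesicles, had 5.52 and then 7.93, 8.16 and 8.86 (1.99, 0.00018), and the tetraspanin Tspan8 had 5.03 and then 7.58, 7.94 and 7.36 (1.97, 0.00077). In all of these replicate 1 was at the level of the other models and the other 3 F311 tumors were well above it. Fbxl16, Frmpd4, Lrtm1, Gcnt3, Clstn3, Clic3, Cdh10 and Tnfsf15 had the same pattern, with differences from the nearest model of 1.08 to 1.99.

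**Figure D2:**
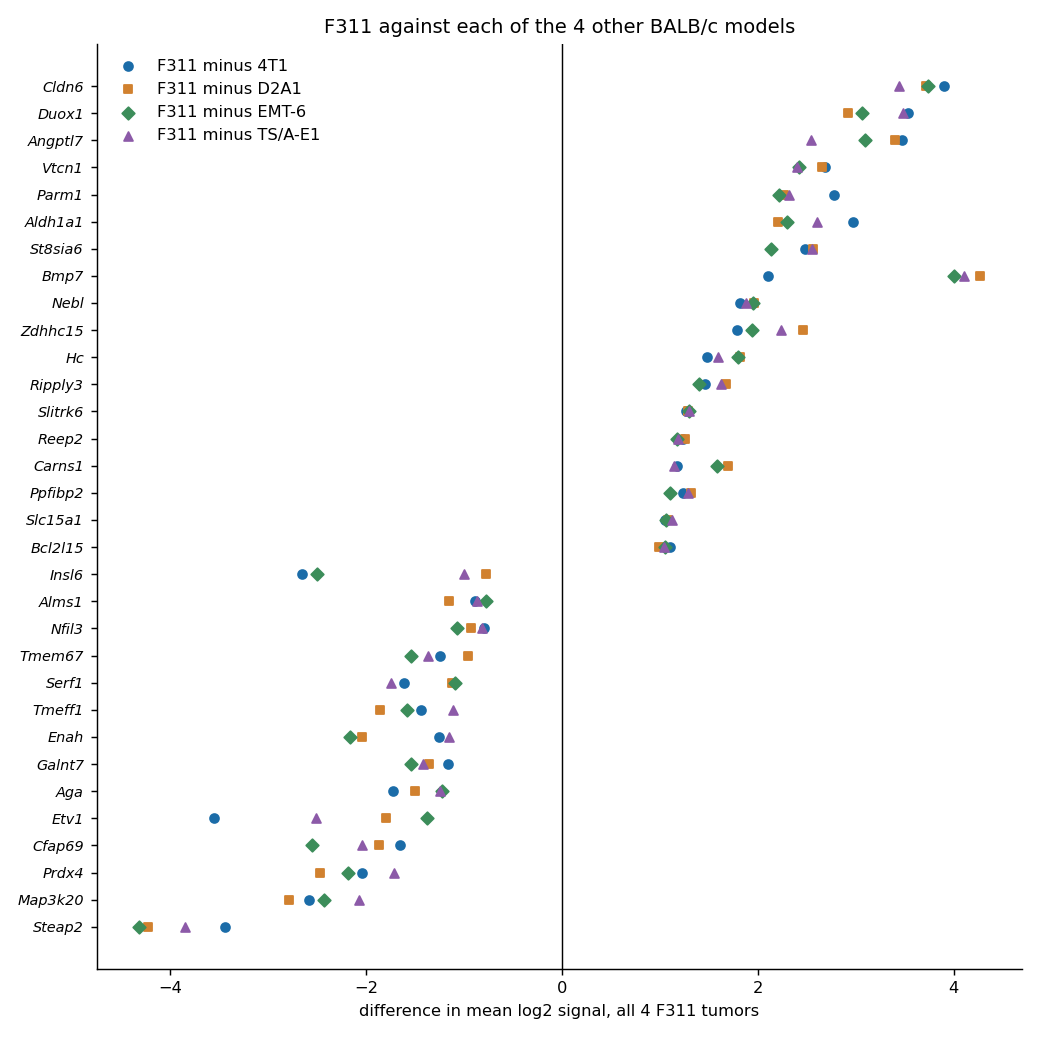
Difference in mean log2 signal between F311 and each of the 4 other BALB/c models (horizontal axis) for 18 higher and 14 lower genes (vertical axis). Each symbol is 1 of the 4 differences of a gene, and a gene is placed by the one nearest to 0, from 3.44 for Cldn6 to -3.44 for Steap2. In Bmp7 and Etv1 the comparison with 4T1 lies far from the others.

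Steap2 (gene ID 74051), a metalloreductase that reduces iron and copper, was the gene most reduced in F311. It had 7.98, 7.19, 7.24 and 7.45 in replicates 1 to 4, against 10.90 ± 0.08 in 4T1, 11.70 ± 0.13 in D2A1, 11.78 ± 0.16 in EMT-6 and, for TS/A-E1, 11.32 ± 0.10 (SD, n = 4 each). All 4 lay far below the lowest other BALB/c tumor at 10.85. Met-1 replicate 2, the tumor closest to F311 replicate 1, with adipocyte and B cell scores of 2.58 and 4.79, had 7.40, against 8.49 to 8.98 in the other Met-1 tumors. The difference from 4T1 was -3.44 ± 0.45 (SE), or 10.8-fold lower (adjusted p = 1.2e-05), and -3.61 without replicate 1. Cfap69, a gene of motile cilia and sperm flagella and the next measured gene on chromosome 5, had 5.46, 5.36, 5.32 and 5.45 against at least 6.75, a difference of -1.65 from 4T1 (adjusted p = 1.4e-05). Steap1, Gtpbp10 and Cldn12, other genes of that region chosen after the values were seen, were not called over all 4 models. Steap1, with 6.20, 7.92, 8.09 and 8.27, was lower than in D2A1 by 2.34 (adjusted p = 5.3e-06), in EMT-6 by 1.99 (0.0001) and in TS/A-E1 by 1.28 (0.015), and differed from 4T1 by -0.09 (0.91). Gtpbp10 and Cldn12 were lower than in D2A1, by 0.70 (0.00099) and 1.25 (0.00083), and did not pass against the other models. The Steap2 mean was also low in M6, an FVB/N model, at 7.86.

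Map3k20, a stress-activated kinase, had 8.79 in replicate 1 and 7.31, 7.48 and 7.18 in the others, against 9.54 to 10.86 in the 16 other tumors (difference -2.07 from TS/A-E1, adjusted p = 3.9e-07). Prdx4, the peroxiredoxin of the endoplasmic reticulum, had 8.39 in replicate 1 and 7.07, 7.16 and 6.62 in the others, against 8.92 to 9.93 (difference -1.71 ± 0.21 (SE) from TS/A-E1, or 3.26-fold lower, adjusted p = 6.9e-06). Both genes were intermediate in replicate 1. Prdx4 was the only one of 22 genes of peroxide and thiol defense to pass against every model. Of these 2, 1, 0 and 0 were higher than in 4T1, D2A1, EMT-6 and TS/A-E1 (8.31%, 11.6%, 8.55% and 4.24% of all genes). Lower were 2, 5, 8 and 3 (9.57%, 12.9%, 9.25% and 7.002%), and the median differences were 0.1, -0.07, -0.22 and -0.03. The higher ones were Gclc and Gclm against 4T1 and Gpx4 against D2A1. In that list Nqo1, a quinone reductase, was lower in F311 than in D2A1, EMT-6 and TS/A-E1, by 1.63, 3.72 and 2.04, with -0.49 from 4T1 (adjusted p = 0.18), and the superoxide dismutase Sod1 was lower than in 3 models by 0.26 to 0.37.

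Etv1, an ETS transcription factor, had 8.71, 7.51, 7.65 and 7.42 in F311, against model means from 9.21 ± 0.26 in EMT-6 to 11.38 ± 0.15 in 4T1 (SD, n = 4 each), with a difference of -1.38 from the former (adjusted p = 0.014). Nfil3, a repressor of the bZIP family, had 7.88 to 8.52 in F311 and a difference of -0.80 from 4T1 (0.012). Aga, a lysosomal enzyme that breaks down glycoproteins, had 8.78, 7.70, 7.67 and 7.47 and a difference of -1.22 from EMT-6 (0.00011). Galnt7, which adds sugars to mucin-type chains, had 8.24 to 8.41 and -1.16 from 4T1 (0.016). Enah, a regulator of actin at cell edges, had 8.82, 7.48, 7.69 and 7.58 and -1.15 from TS/A-E1 (0.019). Replicate 1 was the highest F311 tumor for Etv1, Aga and Enah, and none of these genes overlapped the other models.

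Tmem67 and Alms1, proteins of the primary cilium and its base, differed from the nearest model by -0.96 and -0.78, with 6.69 to 7.22 and 7.60 to 8.03 in F311. Serf1 had 8.36, 7.14, 7.27 and 6.89 (-1.09 from EMT-6, adjusted p = 0.00022), Tmeff1, a membrane protein with follistatin domains, had 7.09 to 8.14 (-1.11 from TS/A-E1, 0.0063), and the insulin-like hormone Insl6 had 6.04 to 6.54 (-0.78 from D2A1, 0.031). Calls were lost when 1 tumor was left out. That of Insl6 was lost without F311 replicate 1, 3 or 4 or D2A1 replicate 2 or 3, and that of Tmeff1 without F311 replicate 2. Those of Etv1 and Enah were lost without F311 replicate 2, 3 or 4, that of Etv1 also without EMT-6 replicate 3 or 4 and that of Enah without TS/A-E1 replicate 4 or 4T1 replicate 2. Galnt7 lost its call without F311 replicate 3 or 4, Nfil3 without F311 replicate 2 or 4T1 replicate 2, and Alms1 without F311 replicate 4 or EMT-6 replicate 2. The calls of Galnt7, Nfil3, Alms1, Tmeff1 and Insl6 were also lost when the 4 tumors with a score above 2.5 were left out, and that of Insl6 with only the BALB/c models in the fit.

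**Figure D3:**
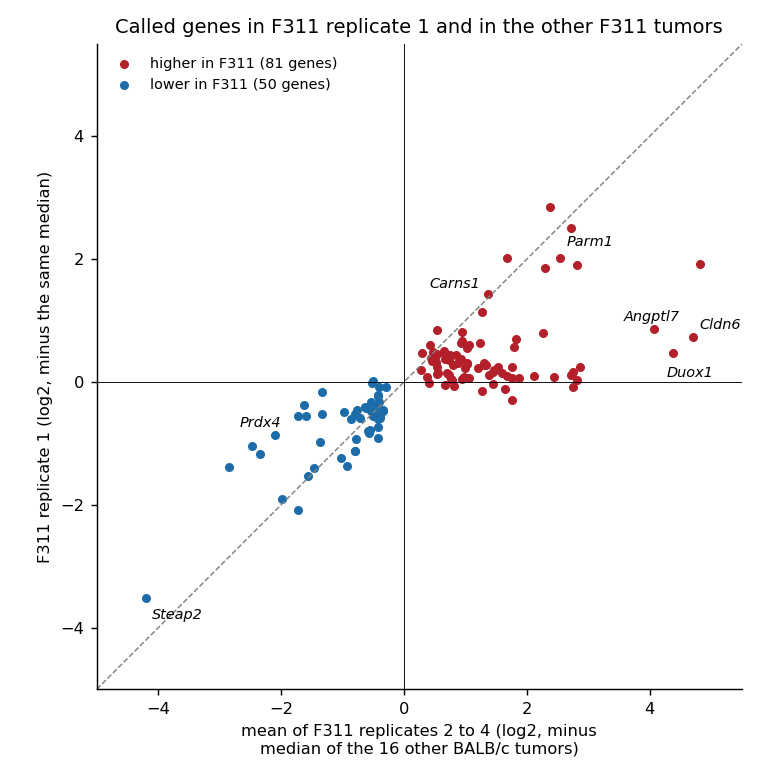
Signal of the 131 called genes in F311 replicate 1 (vertical axis) and in the mean of F311 replicates 2, 3 and 4 (horizontal axis), both as log2 signal minus the median of the 16 other BALB/c tumors. Each point is 1 gene, the dashed line marks equal values, and many of the 81 higher genes lie near 0 in replicate 1, while lower genes such as Steap2 lie nearer the line.

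The higher and lower genes behaved differently in replicate 1. Of the 81 higher genes 69 had their lowest F311 value there, and the excess over the nearest model was, at the median, 13.5% of that in replicates 2 to 4. Of the 50 lower genes 29 had their highest F311 value in replicate 1, and its deficit was 74.3% of theirs at the median. These shares describe genes chosen with replicate 1 among the 4 tumors and have no test.

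Without replicate 1, 121 higher and 61 lower genes were called that did not pass with all tumors. Cdh17, an intestinal-type cadherin, had 5.47 in replicate 1 and 10.66, 10.65 and 10.67 in the others, with 8.32 ± 0.51 in EMT-6 and 6.01 to 6.69 on average in the other models. Its replicates 2 to 4 spanned 0.02, while replicate 1 was below the mean of every other BALB/c model. The difference from EMT-6 was 2.34 without replicate 1 (adjusted p = 3.2e-06) and 1.04 with it. Aldh3a1, an aldehyde dehydrogenase of the cornea and stomach, had 6.11 and then 8.62, 8.14 and 9.05 (1.53 from TS/A-E1, 0.0077), and the interleukin 17 receptor subunit Il17re had 8.32 and then 9.58, 9.86 and 9.66 (1.49 from 4T1, 0.0039). Hey2, a Notch target, had 5.79 and then 6.57 to 7.16 (1.36 from EMT-6, 0.014). The ribonuclease Ang2, the noncoding RNA Lncenc1 and the microtubule-binding Clip4 were the others named by the rule, with differences of 1.70, 1.60 and 1.41.

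The lower genes found only without replicate 1 were led by Dzip1, a protein of the cilium base, with 8.58 in replicate 1 and 6.84, 6.33 and 6.29 in the others (-1.66 from D2A1, adjusted p = 9.2e-05). Zdhhc2, a palmitoyltransferase, had 8.47 and then 7.06, 6.55 and 6.32 (-1.50 from EMT-6, 7.7e-06), and Crim1, a membrane protein that binds BMPs, had 10.02 and then 8.63, 8.53 and 8.23 (-1.36 from 4T1, 7.2e-05). In each of these replicate 1 was within the range of the other models. Car13, Slc35d2, Trerf1, Zfp975 and Zc3h12c differed by -0.92 to -0.82.

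The lower genes were not spread evenly over the chromosomes. Positions were taken from RefSeq by gene ID. Of the 50 lower genes 14 lay on chromosome 12, which holds 652 of the measured genes (2.15% of them called lower, against 0.251% of all genes), and 4 lay on chromosome 18, which holds 470 (0.851%). Without replicate 1 it was 21 of 104 on chromosome 12 (3.22%, against 0.522%) and 15 on chromosome 18 (3.19%). The members on chromosome 12 include the kinase Akt1, the oxygen-sensing factor Hif1a, the translation factor Eif5, the Hippo pathway adaptor Sav1 and Etv1, and those other than Etv1 and Syne3 had differences from the nearest model of -0.52 to -0.20. Akt1 had 11.09, 11.25, 11.25 and 11.16 in F311, against 11.37 to 11.88 in the other tumors, and Hif1a had 11.15, 11.33, 11.33 and 11.39, against 11.53 to 11.99. Neither gene's F311 tumors overlapped the others, and the differences from the nearest model were -0.31 (adjusted p = 0.0042) and -0.34 (0.012).

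The shift extended beyond the called genes. Among the genes with a mean above that of the median gene, the median difference on chromosome 12 was -0.21 from 4T1, -0.28 from D2A1, -0.25 from EMT-6 and -0.24 from TS/A-E1 over 333 genes. On chromosome 18 it was -0.13, -0.20, -0.25 and -0.25 over 245 genes. Over all genes of these chromosomes, dim ones included, it was -0.06 to -0.01 on both. Chromosomes 3 and 8 were also below 0 against each model for the brighter genes, at -0.04, -0.17, -0.04 and -0.02 and at -0.18, -0.18, -0.17 and -0.04. Tumor by tumor, the median level of the brighter genes of chromosome 12, relative to all brighter genes, was -0.07 in replicate 1 and -0.26, -0.25 and -0.31 in replicates 2, 3 and 4, against -0.06 to 0.08 in the 16 other BALB/c tumors and -0.06 to 0.18 in the 28 tumors of other strains. On chromosome 18 it was 0.02 and then -0.25, -0.28 and -0.25, against -0.04 to 0.05 and -0.10 to 0.36. On both chromosomes replicates 2 to 4 lay below all 44 tumors of other models, and replicate 1 lay beside or among them. On chromosome 11 replicates 2 to 4 lay above the other BALB/c tumors, at 0.09, 0.12 and 0.15 against -0.09 to 0.05, with replicate 1 at 0.01, while the 28 tumors of other strains had -0.04 to 0.10, a range that includes replicate 2. On chromosome 3 replicate 1 had -0.15 and replicates 2 to 4 had 0.00, 0.03 and 0.00, the latter within the -0.05 to 0.12 of the other BALB/c tumors, and on chromosome 7 replicate 1 had 0.17, above their highest of 0.05 but within the -0.05 to 0.18 of the other strains, and replicates 2 to 4 had -0.04 to -0.01. Genes of a chromosome are not independent replicates, the pattern was noticed in these data, and DNA was not measured.

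**Figure D4:**
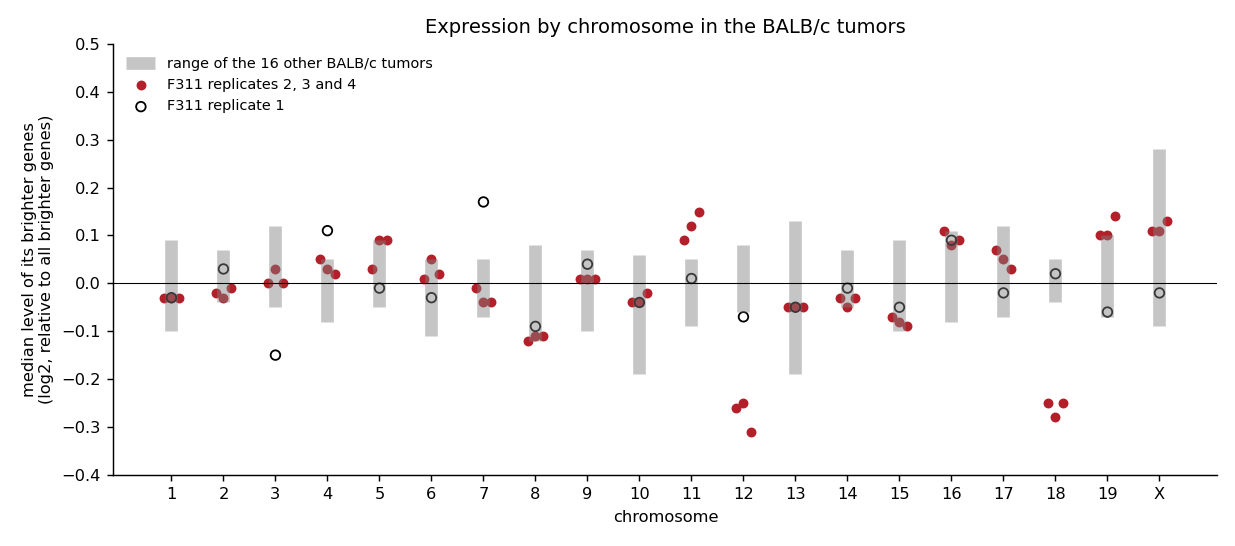
Median log2 level of the brighter genes of each chromosome relative to all brighter genes (vertical axis), by chromosome (horizontal axis). Grey bars span the 16 other BALB/c tumors, filled points are F311 replicates 2, 3 and 4 and open circles are F311 replicate 1. On chromosomes 12 and 18 the filled points lie at -0.31 to -0.25, below the bars, and the open circle lies at -0.07, just under its bar, and at 0.02, within it.

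Called genes seldom lay side by side. With all tumors the only neighboring pairs called in 1 direction were Slc36a1 with Fat2 and Clstn3 with C1rl among the higher genes and Cfap69 with Steap2 among the lower. Without replicate 1 there were 15 such runs, of at most 3 genes, among them Ripply3, Pigp and Ttc3, then Tex35, Rasal2 and 2810025M15Rik, and Cldn6 with Cldn9.

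Of 15 genes of luminal epithelium, none passed against all 4 models. Of them 9 were higher than in D2A1 (11.6% of all genes) and 7 than in EMT-6 (8.55%), with median differences of 1.56 and 1.65, while 4 were lower than in 4T1 (9.57%), 1 than in EMT-6 (9.25%) and 1 than in TS/A-E1 (7.002%), with medians of -0.37 from 4T1 and -0.43 from TS/A-E1. The median over all genes was within 0.03 of 0 in each comparison, and without replicate 1 the counts of higher genes were 8 and 7 (12.2% and 11.3% of all genes). Cdh1, E-cadherin, had 10.10, 10.97, 10.93 and 11.25 in F311, against 7.67 ± 0.24 in D2A1 and 8.08 ± 0.43 in EMT-6 (adjusted p = 5.5e-07 and 1.1e-05) and 11.18 ± 0.18 in 4T1 and 11.30 ± 0.12 in TS/A-E1 (0.62 and 0.59). All F311 tumors were above the former models. Replicates 2 to 4 were close to the latter, and replicate 1 was below the means of both. Of 18 other genes of tight junctions and desmosomes 10 were higher than in D2A1 and 9 than in EMT-6, and 7 were lower and 1 higher than in 4T1 and 4 lower than in TS/A-E1. Their score was -0.34, -0.15, -0.12 and -0.00 in F311, between -1.06 to -0.70 in D2A1 and EMT-6 and 0.18 to 0.43 in TS/A-E1 and 4T1, with no overlap on either side. Ocln, the tight junction protein occludin, was lower than in both of the latter, with 6.33 to 6.76 in F311 against 7.65 ± 0.23 in 4T1 and 8.59 ± 0.05 in TS/A-E1. Of 10 basal and myoepithelial genes 1, 4, 1 and 1 were higher than in 4T1, D2A1, EMT-6 and TS/A-E1. The shares of all genes were 8.31%, 11.6%, 8.55% and 4.24%. Against EMT-6 1 was lower (9.25%). Their score was 1.54 in replicate 1 and 0.01, 0.34 and 0.07 in the others, against -0.87 to 0.46 in the other BALB/c tumors. Krt14, a member, was higher than in D2A1 and EMT-6 only. Trp63, the transcription factor of basal cells and another member, was higher in every F311 tumor than in any other BALB/c tumor, at up to 7.91. It passed against 4T1 and D2A1, by 1.32 and 1.30 (adjusted p = 0.0027 and 0.0021), and narrowly against TS/A-E1, by 0.95 (just under the threshold of 0.05, and 0.074 without replicate 1), with a difference of 0.49 from EMT-6 (0.36).

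Of 21 genes of cell division 19 were lower than in D2A1, where 12.9% of all genes were. Against 4T1 it was 9 of 21 (9.57% of all genes), against EMT-6 10 (9.25%) and against TS/A-E1 none (7.002%). Listed for 4T1, D2A1, EMT-6 and TS/A-E1 in turn, the median differences were -0.58, -0.82, -0.65 and -0.32. Replicate 1 had the lowest score of the 20 tumors, at -1.07, with -0.20, -0.06 and -0.49 in replicates 2 to 4 and -0.42 to 0.60 in the others, and without it the counts were 3, 10, 7 and 1 and the medians -0.35, -0.54, -0.35 and -0.10, beside 9.22%, 10.7%, 9.03% and 6.14% of all genes. Cdk1, the mitotic kinase, had 9.78 in replicate 1 and 10.78, 10.85 and 10.61 in the others, against means of 10.97 to 11.23. Pcna, the sliding clamp of DNA replication, was level in the F311 tumors, at 11.60, 11.75, 11.60 and 11.63, and lower than in D2A1 by 0.37 (adjusted p = 0.00032) and in EMT-6 by 0.36 (0.00058).

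Of 18 genes of hypoxia and glycolysis none was higher, and 4, 5, 10 and 6 were lower in F311 than in 4T1, D2A1, EMT-6 and TS/A-E1, with medians of -0.28, -0.61, -0.79 and -0.50, beside 9.57%, 12.9%, 9.25% and 7.002% of all genes. Without replicate 1, whose score was the lowest of the 20 tumors, the counts were 3, 4, 6 and 3, beside 9.22%, 10.7%, 9.03% and 6.14% of all genes, and the medians -0.02, -0.33, -0.47 and -0.44. Egln3, a prolyl hydroxylase induced by low oxygen, had 8.48, 8.74, 9.17 and 9.84 in F311 and was lower than in each model taken singly, by 1.17 in D2A1 (adjusted p = 0.0098) to 2.44 in 4T1 (1.5e-06), although not by the rule over all 4. Car9, a carbonic anhydrase induced by low oxygen, had 6.63, 7.39, 7.51 and 8.07 and was lower than in 4T1, EMT-6 and TS/A-E1 by 2.18 to 2.33, with a difference of 0.08 from D2A1. Hif1a, which acts upstream of both, is given above, and a link between its level and theirs was not tested.

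Of 7 mast cell genes 6 were lower than in TS/A-E1 (7.002% of all genes), 3 than in EMT-6 (9.25%) and 2 than in 4T1 (9.57%), with medians of -1.98, -1.06 and -0.29. Against D2A1 1, Kit, was higher (11.6%). Cpa3, a mast cell protease, had 10.09 in replicate 1 and 7.10, 6.52 and 6.05 in the others, against 10.59 ± 0.59 in TS/A-E1 and 9.89 ± 0.51 in EMT-6, and the differences of -3.15 and -2.45 passed (adjusted p = 0.0046 and 0.022). Replicate 1 was at the level of these models. Without it the medians were -2.37 and -1.45 and the counts 6 and 5, beside 6.14% and 9.03% of all genes. Of 12 T and NK cell genes 9 were higher than in D2A1 (median 1.53, beside 11.6% of all genes), 3 were higher than in 4T1 (8.31%), 3 were lower than in EMT-6 (9.25%) and 1 was lower than in TS/A-E1 (7.002%), and the T cell gene Cd3e, at 11.81, 11.11, 9.40 and 9.26, was highest in the F311 tumors that were also rich in B cell genes.

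**Figure D5:**
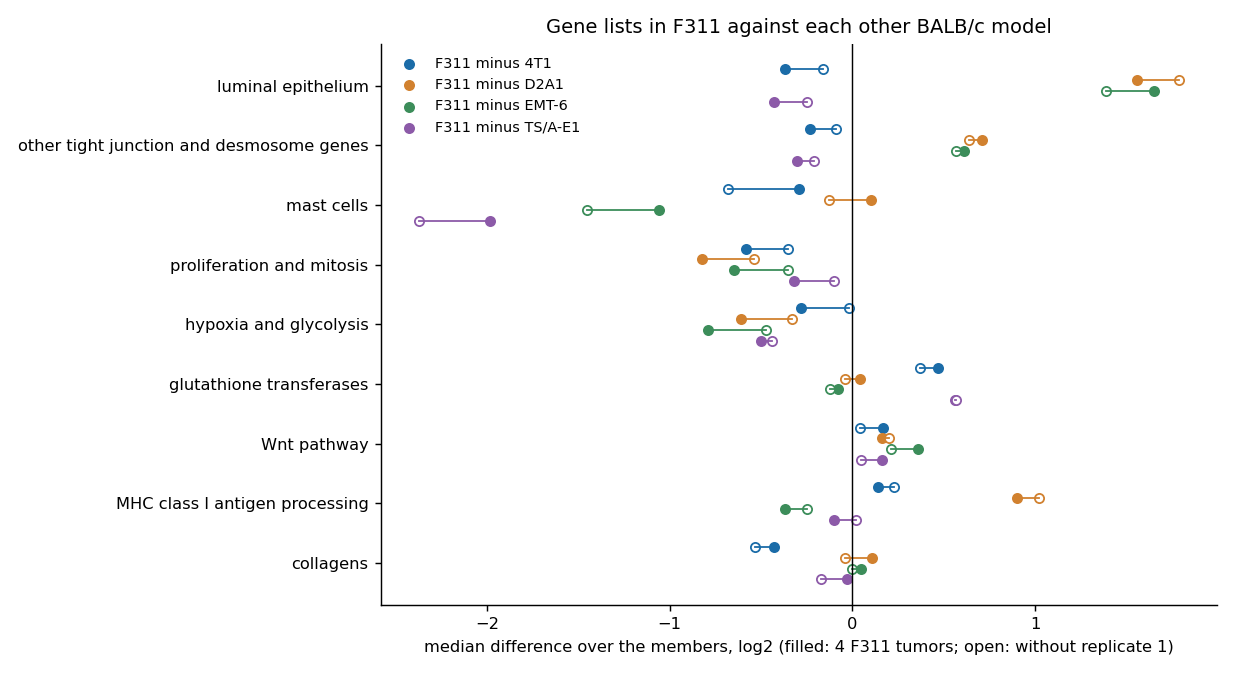
Median over the members of 9 gene lists (vertical axis) of the log2 difference between F311 and each of the 4 other BALB/c models (horizontal axis, by color). Filled points use all 4 F311 tumors and open points leave out replicate 1. Epithelial lists lie near 0.6 and above against D2A1 and EMT-6 and at or below 0 against 4T1 and TS/A-E1.

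Of 18 glutathione transferases, which conjugate reactive compounds, 7 were higher in F311 than in 4T1 (8.31% of all genes) and none lower (9.57%). Against TS/A-E1 9 were higher (4.24%) and 1 lower (7.002%), and the medians were 0.47 from 4T1 and 0.56 from TS/A-E1. Against D2A1 6 were higher (11.6%) and 1 lower (12.9%), and against EMT-6 3 (8.55%) and 3 (9.25%), with medians of 0.04 and -0.08. Without replicate 1 it was 8, 5, 4 and 6 higher than in 4T1, D2A1, EMT-6 and TS/A-E1. The shares of all genes were then 10.4%, 12.2%, 11.3% and 6.25%. Gstm1 had 10.79, 10.31, 10.50 and 10.77 in F311, against 7.68 ± 0.24 in 4T1 (difference 2.91, adjusted p = 2.5e-06) and 8.72 ± 0.22 in TS/A-E1 (1.87, 0.0021), with 10.61 ± 0.23 in D2A1 and 11.40 ± 0.17 in EMT-6. Gstm7 was higher than in each model singly, but its F311 tumors fell into 7.56 and 7.52 in replicates 1 and 2 and 9.92 and 9.58 in replicates 3 and 4.

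In the Wnt pathway no gene of 31 passed against all models with all 4 tumors, and Axin2 and Notum, feedback inhibitors that Wnt signaling induces, passed without replicate 1. Axin2 had 8.03 in replicate 1 and 9.83, 10.38 and 10.34 in the others, against 8.98 ± 0.14 in TS/A-E1, the highest other model (difference from it 1.20 without replicate 1, adjusted p = 0.020, and 0.66 with it). Notum had 6.39 and then 8.88, 9.31 and 9.32, against 8.06 ± 0.27 in TS/A-E1 (1.12, 0.0020). Wnt1 itself, high in TS/A-E1 at 10.14 ± 0.10, was 5.28 to 5.35 in F311. Over the list 2, 5, 9 and 2 genes were higher and 1, 0, 2 and 4 lower than in 4T1, D2A1, EMT-6 and TS/A-E1. The shares of all genes were 8.31%, 11.6%, 8.55% and 4.24% higher and 9.57%, 12.9%, 9.25% and 7.002% lower, and with all 4 tumors the counts of higher genes against 4T1, D2A1 and TS/A-E1 were near them. Without replicate 1 it was 5, 5, 9 and 5 higher, beside 10.4%, 12.2%, 11.3% and 6.25% of all genes. Lower were then 1, 1, 2 and 4, beside 9.22%, 10.7%, 9.03% and 6.14%.

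Genes of MHC class I antigen processing were higher in F311 than in D2A1 and in part lower than in EMT-6. Of 13 genes 11 were higher than in D2A1 (median 0.90, beside 11.6% of all genes) and 5 were lower than in EMT-6 (median -0.37, 9.25%), with 2 higher than in 4T1 (8.31%) and none different from TS/A-E1. Tap1, the peptide transporter, had 10.85, 11.45, 10.85 and 11.09 in F311 and 9.85 ± 0.46 in D2A1 (adjusted p = 2.6e-05). Of 22 collagens 5 were lower than in 4T1 (median -0.43, beside 9.57% of all genes), and without replicate 1 it was 10 (-0.53, 9.22%), with 1 higher (10.4%). With all tumors 1 was lower than in D2A1 (12.9%), 1 was higher (8.55%) and 3 were lower (9.25%) than in EMT-6, and none passed against TS/A-E1. None of the 8 adipocyte and 6 B cell genes passed in any comparison, with all tumors or without replicate 1.

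No isoform of TGF-β, the subject of the study, passed against all 4 models. Tgfb1 had 10.70, 10.93, 10.96 and 10.82, with differences of -0.13 to 0.20 from the other models and no call. Tgfb2 had 7.95, 9.54, 10.24 and 10.20 and was higher than in 4T1, EMT-6 and TS/A-E1 by 1.23, 1.53 and 1.76 (adjusted p = 0.015, 0.0021 and 0.00079), with -0.52 ± 0.37 (SE) from D2A1 (0.37). Replicate 1 was the lowest of the 4 by over 1 log2 unit. Tgfb3 was lower than in 4T1 by 0.56 (0.031) and within 0.43 of the other models. Of 21 genes of ligands, latency and receptors 7 were lower and 1 higher than in 4T1 (9.57% and 8.31% of all genes). Against D2A1 4 were lower and 6 higher (12.9% and 11.6%), against EMT-6 2 and 3 (9.25% and 8.55%), and against TS/A-E1 none and 1 (7.002% and 4.24%). Ppib, used in the study as a reference transcript, was 12.28 to 12.49 in F311 and 12.36 to 12.57 on average elsewhere.

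Set beside the 7 models of other strains, a description without a test, 49 of the 81 higher genes had an F311 mean above that of each of them, and 58 with the mean of replicates 2 to 4. Of the 50 lower genes 29 were below each of them. Duox1, Angptl7, Aldh1a1, Eras, Hc, Carns1, Ripply3, Slitrk6 and Reep2 were among the former and Map3k20, Prdx4, Aga, Serf1, Tmem67 and Cfap69 among the latter. Cfap69 was so only by little, with a mean of 5.40 in F311 and 5.46 in Met-1. Cldn6, Vtcn1, St8sia6, Nebl and Zdhhc15 were higher on average in at least 1 of the 7 models. The share of all genes beyond the means of these models was not counted, so the counts have no background beside them.

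The F311 tumors varied most in genes of B cells and fat. Glycam1, a ligand for lymphocyte homing in lymph node vessels, had 12.65, 11.84, 5.47 and 5.39, the widest range of any gene at 7.26. Cd79a, a part of the B cell receptor, had 10.89, 9.38, 4.74 and 4.45, and Ms4a1 and Fcer2a, other B cell genes, had the same order of replicates 1, 2 and then 3 and 4. Retn, a fat hormone, had 12.82, 8.09, 8.32 and 6.92, and Cyp2e1 had 12.13, 6.85, 7.54 and 5.99, both high in replicate 1 only. Dynap went the other way, at 5.61 in replicate 1 and 11.45, 11.62 and 11.32 in the others. Among replicates 2 to 4 the widest ranges were again those of B cell and lymph node genes, led by Glycam1 at 6.45 and including Cd79b, Fcmr and Cxcl13, with replicate 2 highest in each.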

How the data were processed

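Total RNA of 48 tumors was hybridized to Affymetrix Mouse Gene 1.0 ST arrays, 1 per tumor, after labelling of 100 ng. The authors deposited log2 signal for 35556 transcript clusters per array, and which software and scaling made them is not given in the sources used here. No 2 arrays held identical values. Array signal includes background and saturates, and 4 tumors per model limit the precision.

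Clusters were named from the supplied probe annotation. There 21789 name 1 gene, 1621 several and 12146 none, and 21698 matched RefSeq by gene ID. For 999 genes with more clusters the brightest on average was kept, which left 19938 genes without a filter on dim ones. Groups and replicate numbers came from the sample titles.

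A linear model with 1 group per model was fitted to all 48 arrays with limma 3.58.1 in R 4.3.3, with contrasts of F311 against 4T1, D2A1, EMT-6 and TS/A-E1. The fit took the spread of a gene as equal in all models. Tests were 2-sided with Benjamini-Hochberg adjustment over all genes, and a gene passed at an adjusted p under 0.05. The rule over all 4 models took the largest of the 4 p-values (1 where directions differed). On simulated data with 200 changed genes of 19938 this rule recovered 55%, 89% and 98% at log2 changes of 0.5, 1 and 2. The simulated tumors of a gene varied equally in all models, with none set apart like F311 replicate 1. These rates may therefore not hold for the F311 tumors. Tables used Python 3.11.15, numpy 2.4.6 and pandas 2.3.3, and figures matplotlib 3.10.9. Members of gene lists were counted and their median given, with no set test.

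The genes named are Cldn6, Duox1 and Angptl7, then among called genes that do not overlap the 16 other BALB/c tumors, without predicted symbols, the 14 higher and the 14 lower with the largest difference from the nearest model. Also named are called members of the lists described, the 8 genes in each direction called only without F311 replicate 1, Tgfb1 to Tgfb3 and Ppib, and the 8 genes with the widest range among the 4 F311 tumors and among replicates 2 to 4. The comparison, the gene lists and the tests were chosen with earlier results of these data known, and list members, neighboring genes and genes on chromosomes 12 and 18 were picked for the text after their values were seen. Alternatives were only the BALB/c models in the fit, arrays centred or quantile-normalized, averaged clusters, no genes of the dimmest 30%, an intensity trend or robust prior, a replicate block, a difference of at least 1, the methods' t-test, scores of adipocyte and B cell genes as covariates, leaving out the tumors with such a score above 2.5, and leaving out each tumor or model. Fits without F311 replicates 1 and 2, and the chromosome medians, were added after the data were seen. Some well-known genes of the lists had no cluster with 1 gene and are not analysed here.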

Additional observations from a re-analysis of the deposited data

Results flagged for a closer look

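Among 64 sets of 4 F311 values examined, for the named genes and the cell type scores, 11 had 1 tumor far from the other 3, and in all 11 it was replicate 1. Chance gives about 1 in 20 independent sets, but these sets share the same 4 tumors and several of the genes were named for a difference that replicate 1 did not share, so the 11 are no count against chance. The signal of replicate 1 was low for Cldn6 (7.40), Duox1 (6.77), Angptl7 (7.13), Bmp7 (9.03), Cdh17 (5.47) and Cldn9 (6.71), with gaps of 2.67 to 5.18 to the nearest F311 tumor. It was high for Enah (8.82) and Car13 (9.49), with gaps of 1.13 and 1.07. Its scores were high for pericytes and smooth muscle (1.23), fibroblasts (1.00) and Schwann cells and nerve (0.76), with gaps of 1.45, 1.11 and 0.79.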

How the results depend on the processing

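The 81 higher and 50 lower genes are counts that move with the tumors and models taken. Leaving out 1 tumor gave 38 to 200 higher and 27 to 104 lower genes, with the highest counts without F311 replicate 1 and the lowest without replicate 3 or 4, and 2777 to 3917, 3945 to 4990, 2768 to 4051 and 1709 to 2470 genes against 4T1, D2A1, EMT-6 and TS/A-E1. Without F311 replicates 1 and 2, a setting chosen after seeing the data, 186 were higher. Leaving out the 4 tumors with an adipocyte or B cell score above 2.5, 167 were higher, and with those scores as covariates 125 and 80. With only BALB/c models in the fit 92 were lower, and with centred arrays 49 were higher. Not comparing with 4T1 gave 137 and 143, with TS/A-E1 145 and 146, with D2A1 114 lower and with EMT-6 108 lower. A difference of at least 1 left 33 and 10, and 556, 904, 616 and 398 against the single models. The methods' t-test after adjustment gave 0 and 1 (259 and 360 at an unadjusted p under 0.05, against 81 and 50 by limma after adjustment), and 2254, 1908, 1896 and 1193. The replicate numbers did not pair the tumors (correlations of same-numbered deviations from -0.65 to 0.52, with the same number best in 5 of 16 pairs), and a replicate block gave 80 and 57, and 3530, 4836, 3503 and 2229. For 48 named genes no direction changed in 1530 refits, 88 of which lost a call and 63 gained one. The t-test was among the settings that lost calls, including those of Cldn6, Duox1, Angptl7, Bmp7, Map3k20 and Prdx4. Of 632 medians of lists and chromosomes 47 moved by more than the spread between tumors.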
